A study of Mus musculus with 4 samples.

Results

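The 10 genes described here build the hyaluronan-rich extracellular matrix of the endocardial cushions: the hyaluronan synthase Has2, the chondroitin sulfate proteoglycan versican (Vcan) and its link protein Hapln1, the matricellular protein periostin (Postn), the fibulins Fbln1 and Fbln2, fibrillin 1 (Fbn1), fibronectin (Fn1), and the small leucine-rich proteoglycans lumican (Lum) and decorin (Dcn). They were chosen by name, with Cspg2 and Crtl1 accepted as older names of Vcan and Hapln1. The choice found 21 probes on 30 spots for all 10 genes, among 41174 probes of the array and 19091 genes tested. All 10 genes passed the filter on dim probes through at least 1 probe.

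The data come from the atrioventricular canal (AVC) of mouse embryos at e10.5, on a background of Sv129 and C57Bl6 in equal parts. Each of 4 two-colour arrays compared tissue pooled from 5 wild type control hearts, labelled with Cy3, with tissue pooled from 5 hearts of Tbx3 mutants, labelled with Cy5, so the study holds 4 control and 4 mutant pools that the labels call biological replicates. The series title calls the mutant hypomorphic, meaning that gene function is reduced and not lost, and the labels used here do not describe the allele. The comparison asks how reduced Tbx3, a T-box transcription repressor of the AVC, changes the transcripts of this tissue. The dyes were never swapped, so a dye effect particular to a probe and the genotype cannot be told apart, and in dissected tissue fewer cells of a type and less RNA per cell cannot be told apart either.

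During cushion formation the endocardium and myocardium of the canal secrete a swollen jelly of hyaluronan and versican, held together by link protein, and endocardial cells enter it as mesenchyme. Has2 makes the hyaluronan, and embryos without it form no cushions. Periostin, fibulins, fibrillin and fibronectin then organise the matrix around the mesenchyme as the cushions mature into valves. Lumican and decorin bind collagen fibrils and are better known from later, fibrous connective tissue.

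Tbx3 itself, which checks the labels, fell in the mutant pools by 1.35 on the log2 scale (SD 0.10, n = 4; adjusted p = 0.0454, limma), and its ratio was negative on all 4 arrays. The median spot signal ranged from 117.9 to 133.5 for the control pools and from 175.1 to 232.5 for the mutant pools before normalization. Array 2 stood apart: over all genes its log2 ratios had an SD of 0.49 against 0.26 to 0.29 on the other arrays, and its correlation with them across genes, which are not independent replicates, lay between -0.06 and 0.07. Member results are therefore given with and without array 2. Levels are log2 intensities after normalization, ratios are log2 of mutant over control, and p-values are from limma with Benjamini-Hochberg adjustment over all 19091 genes at a threshold of 0.05. Levels of different genes come from different probes and are not set against each other.

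The probes of Fn1, which was read at 3 places, of Hapln1 and of Dcn, whose ratios had the smallest and the largest SD of the 10 genes over 4 arrays, are shown. Positions are those of build mm7 in the files, with no annotation of that build used here. All 3 Fn1 probes and the brighter Hapln1 probe each read without a stop codon in at least 1 frame. The Dcn probe is shown through its first 57 bases, and its capitals mark the stop codon that ends the frame counted from base 1. Of the Fn1 probes, the first (chr1:71832689-71834926) and the last (chr1:71869155-71869913) have positions wider than the probe itself and so join separate stretches of the genome. The second lies at chr1:71839394-71839453, the Hapln1 probe at chr13:86682433-86682492 and the Dcn probe at chr10:97080086-97080145.
Fn1, first probe: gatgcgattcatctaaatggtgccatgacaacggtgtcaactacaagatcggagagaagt
Fn1, second probe: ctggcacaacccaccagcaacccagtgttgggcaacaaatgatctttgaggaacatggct
Fn1, last probe: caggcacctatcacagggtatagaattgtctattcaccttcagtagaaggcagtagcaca
Hapln1: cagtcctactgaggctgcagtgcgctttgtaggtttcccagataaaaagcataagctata
Dcn: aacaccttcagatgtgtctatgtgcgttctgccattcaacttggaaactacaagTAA

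Postn was the 1 gene of the set whose ratio was negative on all 4 arrays. Vcan and Hapln1 each had a mean of 0.05, and the hyaluronan synthase gene Has2 had a mean of -0.22. The 10 genes had a median log2 ratio of -0.14, against 0.0012 over all genes tested, and none passed the threshold on 4 arrays (0.00524% of all genes did, which is Tbx3 alone). At an unadjusted p under 0.05 there was 1, Postn, where 14.5% of all genes had such a p and 7.45% had one with a lower mean. Of the 10 genes 7 had a negative mean, against 49.7% of all genes, and 1 was lower on all 4 arrays, against 12.6%. Without array 2 the median was 0.04, 4 genes had a negative mean (47.7% of all genes did), and 1 gene, Postn, passed the threshold, which 1.02% of all genes did in either direction and 0.33% did with a lower mean. Counts over 10 genes are coarse beside these shares, and the members are described one by one.

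**Figure D1:**
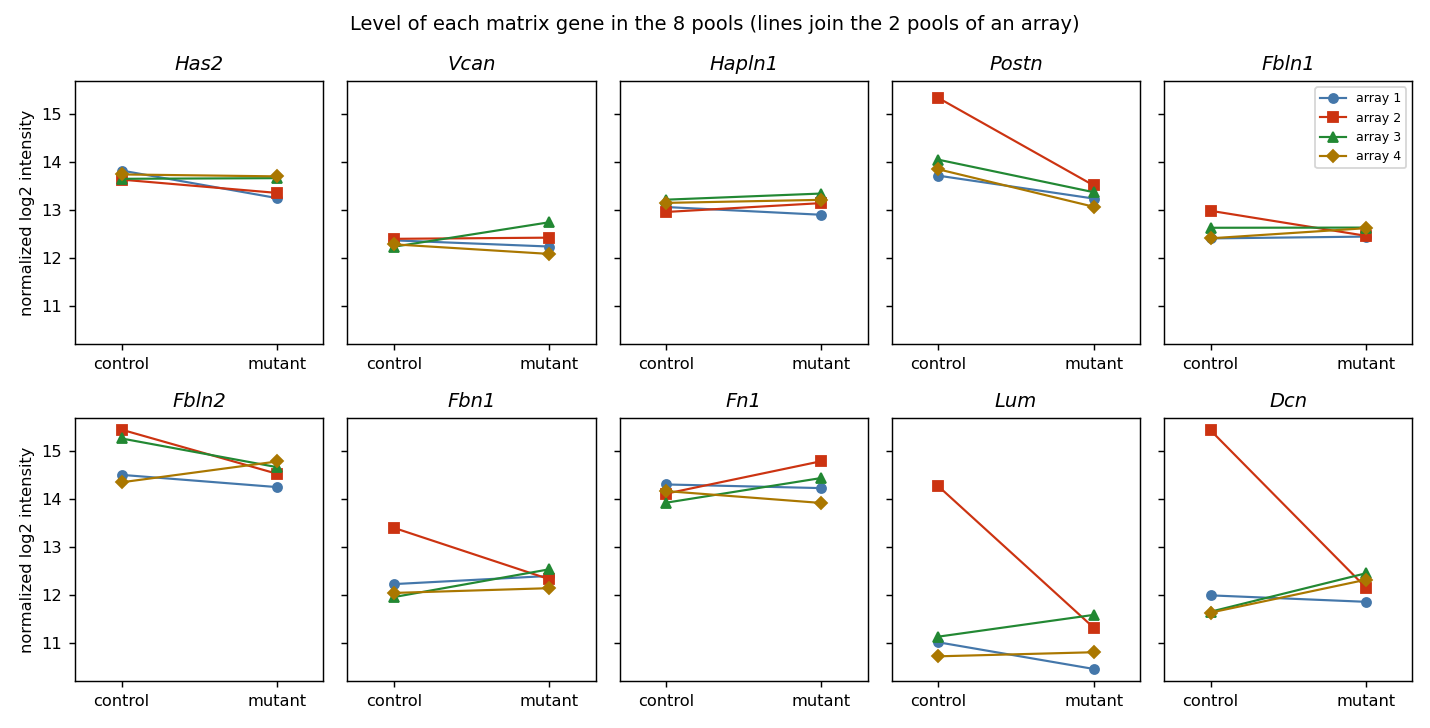
Normalized log2 intensity of each of the 10 genes in the 4 control and 4 mutant pools; each line joins the control and mutant pool of 1 array, and intensities of different genes are not comparable. Control pool 2 lies far above the other control pools for Dcn (15.42) and Lum (14.26), while the mutant pools of both genes stay within 1.13 of each other.

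The hyaluronan synthase gene Has2 stood at levels of 13.82, 13.63, 13.65 and 13.74 in control pools 1 to 4 and of 13.25, 13.36, 13.67 and 13.70 in mutant pools 1 to 4. Mutant pools 1 and 2 were below every control pool, and mutant pools 3 and 4 lay among them, so the groups overlapped. The log2 ratios were -0.57, -0.28, 0.01 and -0.04 on arrays 1 to 4, with a mean of -0.22 ± 0.27 (SD, n = 4; adjusted p = 0.445). The 95% interval of the mean, from limma, ran from -0.50 to 0.07. It was -0.20 ± 0.32 (SD, n = 3) without array 2 and -0.10 without array 1. A dimmer Has2 probe at chr15:56755204-56755263, where the brighter one lies at chr15:56729040-56729099, followed the same order over the arrays, with -0.45, -0.13, 0.16 and 0.03.

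Versican was read by 5 probes, of which 4 passed the filter. The brightest, at chr13:86731633-86731692, gave control levels of 12.37, 12.40, 12.24 and 12.29 and mutant levels of 12.24, 12.43, 12.75 and 12.09. Mutant pool 3 was the highest and mutant pool 4 the lowest of all 8, and the groups overlapped. The mean ratio was 0.05 ± 0.32 (SD, n = 4; adjusted p = 0.891; 95% interval -0.28 to 0.38), and without array 2 it was 0.06 ± 0.39 (SD, n = 3). The mean was -0.10 without array 3, 0.11 without array 1 and 0.13 without array 4.

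The other Vcan probes were much dimmer. The one at chr13:86800035-86805889, wider than the probe and so joining separate stretches of the gene, read 0.07 ± 0.18. That at chr13:86784841-86784900 was negative on all 4 arrays at -0.15 ± 0.10, and that at chr13:86808632-86808691 was positive on all 4 at 0.19 ± 0.10, so dim probes of the same gene pointed in opposite directions. The fifth was not well above background in any pool.

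Hapln1, the link protein that ties versican to hyaluronan, had the smallest SD of the ratio over 4 arrays, 0.15. Its levels were 13.06, 12.96, 13.22 and 13.15 in the control pools and 12.90, 13.15, 13.35 and 13.21 in the mutant pools, with full overlap. The mean log2 ratio was 0.05 ± 0.15 (SD, n = 4; adjusted p = 0.793), and the 95% interval of the mean, from limma, ran from -0.14 to 0.25. The mean was 0.010 ± 0.15 (SD, n = 3) without array 2, 0.13 without array 1 and 0.029 without array 3. A second Hapln1 probe, at chr13:86683142-86683201, read -0.02 ± 0.18, and -0.09 ± 0.13 without array 2. With each array centred on its median in place of the loess curve, which leaves the trend of the ratio with brightness in place, Hapln1 stood at 0.29 (adjusted p = 0.0495). In that setting 5250 of the 19091 genes tested passed the threshold. Hapln1 and Vcan lie next to each other on chromosome 13, with 49.1 kb between the probes that stand for them and no protein-coding gene between the pair in the RefSeq table of GRCm38.

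Fibronectin, the adhesive glycoprotein on which cushion cells migrate, had levels of 14.30, 14.11, 13.92 and 14.16 in the control pools and of 14.22, 14.78, 14.43 and 13.91 in the mutant pools. Mutant pools 2 and 3 were higher than every control pool, and mutant pool 4 was level with the lowest control pool. The ratios were -0.08, 0.68, 0.51 and -0.25 on arrays 1 to 4, for a mean of 0.22 ± 0.45 (SD, n = 4; adjusted p = 0.621). The mean was 0.06 ± 0.40 (SD, n = 3) without array 2, 0.12 without array 3 and 0.37 without array 4.

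The first Fn1 probe shown was printed on 10 spots of each array, which gives the error between spots alone, without that of labelling or hybridization. The SD over these spots lay between 0.02 and 0.04 on the 4 arrays. The second Fn1 probe shown had a mean of 0.32 ± 0.50 (SD, n = 4), and of 0.13 ± 0.40 without array 2. The last Fn1 probe shown had a mean of 0.31 ± 0.39 (SD, n = 4), and of 0.19 ± 0.38 without array 2. All 3 were negative on array 4 and positive on arrays 2 and 3, and on array 1 the last of them read 0.57 where the other two read -0.08.

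**Figure D2:**
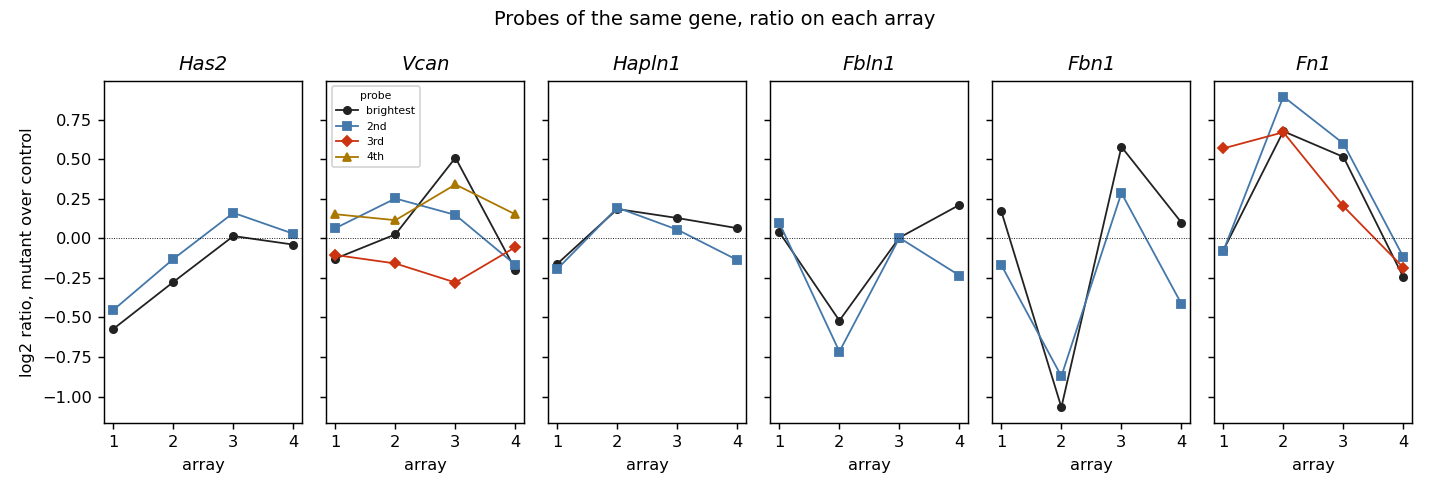
Log2 ratio of mutant over control on arrays 1 to 4 for the 6 genes with more than 1 probe of their own name past the filter, each line a probe, ordered in the legend by mean control level. The Has2 probes share their order over the arrays, the Fbln1 probes part on array 4 (0.21 and -0.24), and the Vcan probes point both ways.

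Periostin, a secreted protein of cushion mesenchyme that takes part in collagen assembly and valve maturation, had levels of 13.72, 15.33, 14.05 and 13.85 in control pools 1 to 4. Its levels in mutant pools 1 to 4 were 13.24, 13.51, 13.37 and 13.07. Every mutant pool was below every control pool, which held for 5.11% of all genes, and control pool 2 was 2.75-fold above the mean of the other control pools. The log2 ratios were -0.48, -1.82, -0.68 and -0.78 on arrays 1 to 4, with a mean of -0.94 ± 0.60 (SD, n = 4), or 1.92-fold more in the control pools. This mean did not pass the threshold (unadjusted p = 0.0079; adjusted p = 0.201), and 0.215% of all genes had a lower one.

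Without array 2 the Postn ratios lay within 0.30 of each other and Postn fell in the mutant pools by 0.64 (SD 0.15, n = 3; adjusted p = 0.0496), a 1.56-fold difference. The pass is narrow: without array 1, 3 or 4 instead, the adjusted p lay between 0.372 and 0.613, and with array 2 left out and the trend with brightness removed it was 0.0626. The ratio was negative in each of the 15 alternative settings tried. Since it was negative on all 4 arrays, leaving out or weighting arrays could not turn it. Several other settings repeat the main value of -0.94 by construction. The ratio was -0.54 with the mean over probes, which brings in a second and dim probe. The brighter probe lies at chr3:54519770-54519829. The dim probe, listed in the files as A630052E07Rik and assigned to Postn through a RefSeq synonym, lies at chr3:54510239-54510298, with control levels between 6.59 and 6.68. It read -0.19, 0.18, -0.33 and -0.25 on arrays 1 to 4.

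The markers of cushion mesenchyme, mostly transcription factors, lay below 0 on arrays 1, 3 and 4 (medians of -0.24, -0.18 and -0.20). On array 2, where Postn was lowest, their median was 0.04. Of 13 measured 11 had a negative mean (49.7% of all genes did), with a median of -0.22. Without array 2 all 13 were negative (47.7% of all genes), with a median of -0.21. At an unadjusted p under 0.05 in limma there were 3 of the 13, and 8 without array 2, all lower. Over all genes these shares were 14.5% and 23.2% in either direction. Without array 2, 1 of the 13, the homeobox gene Msx2, passed the threshold (-0.58 ± 0.06, adjusted p = 0.0425, limma), as 1.02% of all genes did. Msx2 stood at 0.21 on array 2 and was named after its values were seen. The mean log2 level of the list lay between 12.23 and 12.44 in the control pools and between 12.00 and 12.27 in the mutant pools. The bright members Id2 and Prrx2 stood at -0.46 and -0.21 without array 2, and at 0.49 and 0.29 on array 2. Their part in the Postn result was not tested.

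Because Tbx3 binds T-box elements and Postn had the most negative mean of the set, upstream sequence was read from promoter windows of build GRCm38.p6. The collection used held 8 windows of 250 bases, for 6 of the 10 genes, and those of Fbln1 overlap. The T-box core GTGTGA, or TCACAC on the other strand, was in none of the 8, and in 12.3% of 32851 such windows of all genes. This says only that these letters are absent from these windows. TATAAA, searched on the gene's own strand, was in 1 of the 8 and in 7.59% of all windows. That window precedes the second of the Postn start sites, chr3:54360857-54361106 on the plus strand, and its TATAAA, in capitals, begins 26 bases before the start site.
Postn upstream window: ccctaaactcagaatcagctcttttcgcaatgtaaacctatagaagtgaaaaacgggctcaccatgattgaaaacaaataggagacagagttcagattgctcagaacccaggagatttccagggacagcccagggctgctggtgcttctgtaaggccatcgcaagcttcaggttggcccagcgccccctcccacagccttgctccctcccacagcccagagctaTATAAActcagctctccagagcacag

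The fibulins and fibrillin, which build microfibrils and elastic fibres, shared a high control pool 2. Fbln1 had control levels of 12.41, 12.99, 12.63 and 12.41 and mutant levels of 12.45, 12.47, 12.64 and 12.62. Apart from control pool 2 the 2 groups covered the same range. The ratios were 0.04, -0.52, 0.0038 and 0.21, with a mean of -0.07 ± 0.32 (SD, n = 4; adjusted p = 0.849) and of 0.08 ± 0.11 (SD, n = 3; adjusted p = 0.530) without array 2. A second Fbln1 probe, at chr15:85367745-85367805, had a mean of -0.21 ± 0.36 (SD, n = 4) and was also lowest on array 2, at -0.72. Its mean was -0.05 ± 0.17 (SD, n = 3) without array 2.

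Fbln2, a fibulin of migrating cushion cells, was high in 2 control pools rather than 1. Its control levels were 14.50, 15.44, 15.25 and 14.34 and its mutant levels 14.24, 14.52, 14.66 and 14.78. The ratios were -0.25, -0.92, -0.60 and 0.43, so array 4 went against the others, and the mean of -0.33 ± 0.58 (SD, n = 4; adjusted p = 0.545) became -0.14 ± 0.52 (SD, n = 3) without array 2. It was -0.59 without array 4 (adjusted p = 0.578, limma).

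Fbn1, the main protein of microfibrils, had control levels of 12.22, 13.39, 11.95 and 12.04 and mutant levels of 12.39, 12.33, 12.53 and 12.14. Control pool 2 was 2.50-fold above the mean of the other controls, and mutant pool 2 lay in the middle of the mutant pools. The ratios were 0.17, -1.07, 0.58 and 0.10. The mean went from -0.06 ± 0.71 (SD, n = 4; adjusted p = 0.945) to 0.28 ± 0.26 (SD, n = 3; adjusted p = 0.217) without array 2, higher on all 3 remaining arrays, as were 23.6% of all genes. The second Fbn1 probe, at chr2:125042371-125042430, read -0.17, -0.87, 0.29 and -0.41 on arrays 1 to 4. Both probes were lowest on array 2 and highest on array 3, and they had opposite signs on arrays 1 and 4. Without array 2 the mean of the second was -0.10 ± 0.36 (SD, n = 3).

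Lumican and decorin, neighbours on chromosome 10 with 54.9 kb between their probes and no protein-coding gene between them, differed most between control pools. Dcn stood at 11.99, 15.42, 11.65 and 11.63 in control pools 1 to 4 and at 11.86, 12.15, 12.45 and 12.32 in the mutant pools. Lum stood at 11.01, 14.26, 11.13 and 10.72 in the control pools and at 10.46, 11.32, 11.58 and 10.81 in the mutant pools. Control pool 2 was 12.7-fold above the mean of the other control pools for Dcn and 9.88-fold for Lum, and mutant pool 2 was 0.963-fold and 1.29-fold the other mutant pools.

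On array 2 the Dcn ratio was -3.27 and the Lum ratio -2.94, and 70 and 94 of the 19091 genes had lower ratios there. On arrays 1, 3 and 4 the Dcn ratios were -0.13, 0.80 and 0.68 and the Lum ratios -0.55, 0.45 and 0.09, so both were lowest on array 1 and highest on array 3. The mean of Dcn was -0.48 ± 1.91 (SD, n = 4; adjusted p = 0.794) and became 0.45 ± 0.51 (SD, n = 3; adjusted p = 0.247) without array 2, which turns its direction. That of Lum went from -0.74 ± 1.53 (SD, n = 4; adjusted p = 0.603) to -0.0055 ± 0.51 (SD, n = 3; adjusted p = 0.990). The second Dcn probe was not well above background in any pool.

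**Figure D3:**
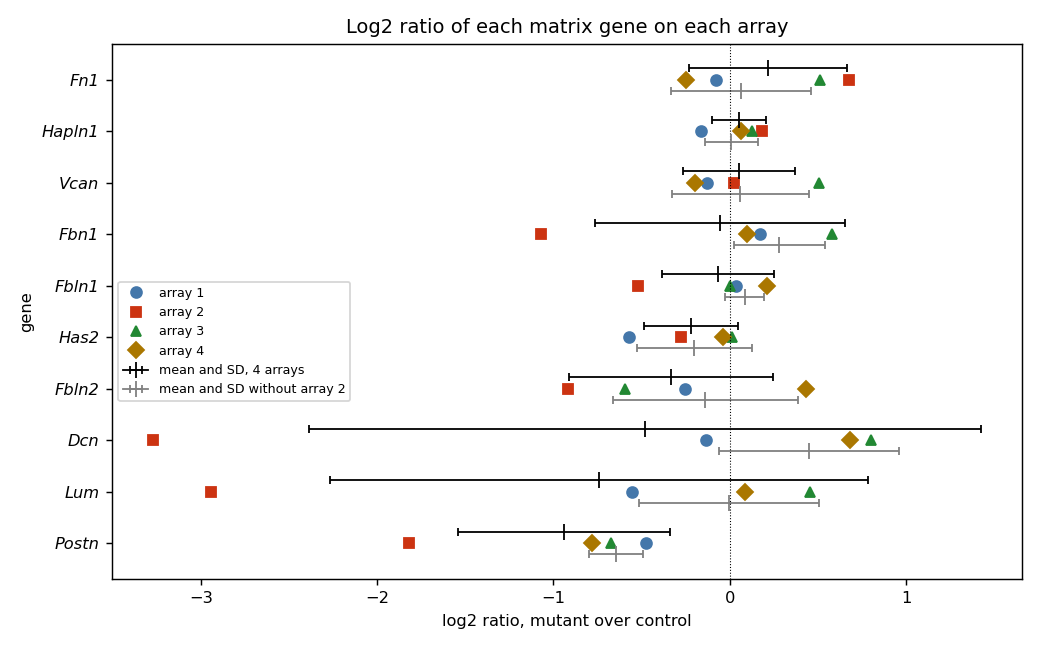
Log2 ratio of mutant over control for each of the 10 genes on arrays 1 to 4, with the mean and SD over 4 arrays (black) and over arrays 1, 3 and 4 (grey). Array 2 gives the lowest ratio for 6 genes and the highest for Fn1 and Hapln1, and Postn is below 0 on all 4.

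Control pool 2 was the highest of the 4 control pools for 7 of the 10 genes, as it was for 23.4% of all genes, and at least 1 log2 unit above the mean of the other 3 for 4 genes, Dcn, Lum, Postn and Fbn1, against 3.27% of all genes. Mutant pool 2 was the highest mutant pool for 2 genes, Fn1 and Postn (24.2% of all genes), and at least 1 log2 unit above the others for none (0.644% of all genes). Has2, Vcan and Hapln1, which serve the hyaluronan and versican jelly, differed there from the mean of the other control pools by -0.10, 0.10 and -0.18 log2 units.

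**Figure D4:**
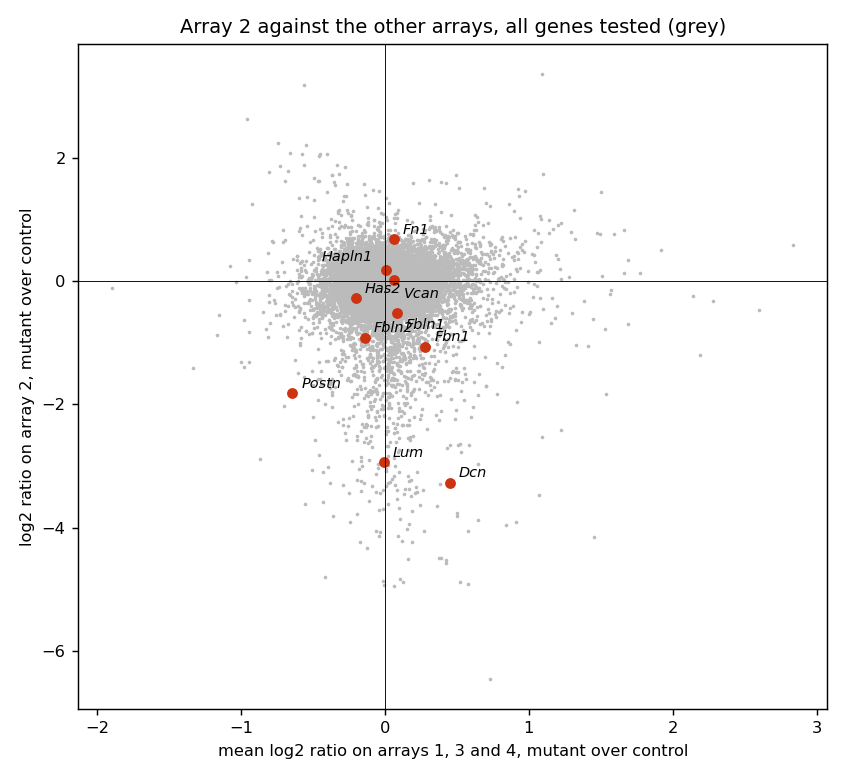
Log2 ratio on array 2 against the mean log2 ratio on arrays 1, 3 and 4 for all 19091 genes tested (grey) and the 10 matrix genes (red). Dcn and Lum lie at -3.27 and -2.94 on array 2 and at 0.45 and -0.0055 on the others.

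Genes of differentiated connective tissue and of uterus stood high in the same control pool. Over all genes the share at least 1 log2 unit above the other pools of its group was 3.27% for control pool 2 and 0.644% for mutant pool 2. Of 13 measured fibroblast markers 9 were at least 1 log2 unit above the mean of the other control pools, and their mean level was 12.34 in control pool 2 against 9.45 to 9.52 in the others. In mutant pool 2 their mean level was 10.58 against 9.39 to 9.70, and 5 of the 13 were at least 1 log2 unit up there. Of 11 measured uterine and decidual markers 6 were up by that much in control pool 2, with a mean level of 11.20 against 9.07 to 9.25. In mutant pool 2 this list's mean was 9.57 against 8.91 to 9.60, and 1 of the 11 was at least 1 log2 unit up there. The posterior homeobox gene Hoxa10 stood at 11.85 in control pool 2 and between 6.19 and 6.44 in the other control pools, near the dimmest level called above background, which was 6.16 to 6.22. Hoxa11 stood at 13.10 against 6.08 to 7.01, and in mutant pool 2 at 8.61 against 6.42 to 7.76 in the other mutant pools. The smooth muscle genes Cnn1 and Actg2, the brightest of the list, stood at 16.01 and 14.72 in control pool 2, below the other control pools. A further 8 listed genes, among them Pgr, Prl3c1 and Oxtr, did not pass the filter. It asks for signal on 3 or more of the 4 arrays, so it cannot show whether they were absent from control pool 2.

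Of 11 leukocyte markers 9 were at least 1 log2 unit up in control pool 2, with a mean level of 10.74 against 8.69 to 8.89. In the mutant pools it lay between 8.70 and 9.20. In control pool 2 the myeloid gene Lyz2 stood at 15.07, against 13.01 to 13.43 in the other control pools. Coro1a stood at 12.04 in control pool 2, against 10.77 to 10.99 in the other control pools and 12.02 in mutant pool 1. None of 13 cushion mesenchyme regulators, 10 endothelial, 12 myocardial or 9 erythroid markers was up by that much in control pool 2, and 1 of 9 epicardial markers, Aldh1a2, was. The part of these cell types in the Dcn, Lum, Fbn1 and Postn levels of control pool 2 was not tested.

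The other cell types gave these values on the arrays. The endothelial list had a median of 0.0042 (-0.0085 without array 2), with Egfl7 at 0.13 ± 0.16 and Emcn at 0.10 ± 0.41 (0.19 and 0.28 without array 2). The myocardial list had a median of 0.22 (0.18 without array 2), with Myh7 at 1.09 ± 0.22 and Myl7 at 1.04 ± 0.29, both past the threshold without array 2. The epicardial list had a median of 0.14 (0.25 without array 2), with Krt19 past the threshold without array 2 (1.59, adjusted p = 0.0350, limma; named after its values were seen), Upk3b at 0.14 ± 0.32 (0.03 without array 2) and Aldh1a2 at -0.27 ± 0.98 (0.16 without array 2). The erythroid list had a median of 0.16 (0.08 without array 2), and its embryonic globins Hbb-bh1 and Hbb-y differed most on array 1, at 2.20 and 2.21.

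**Figure D5:**
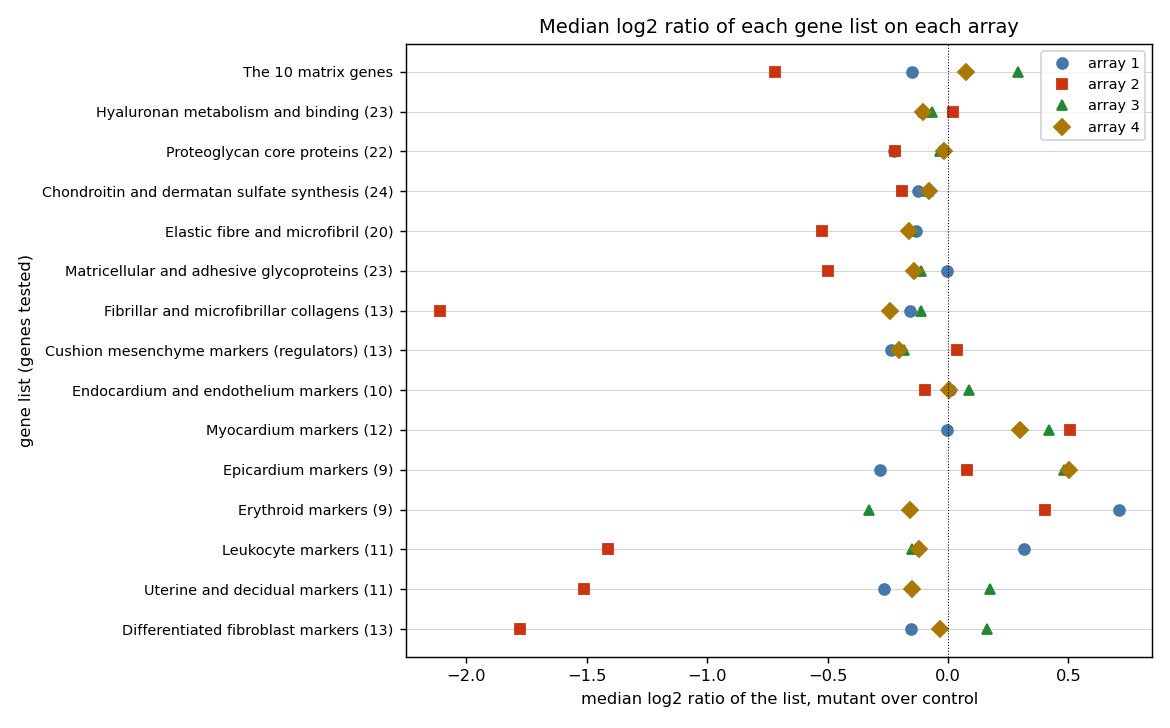
Median log2 ratio of mutant over control on arrays 1 to 4 for the 10 matrix genes, the pathway lists and the cell type lists, with the number of genes tested in brackets. Array 2 lies at -2.11 for collagens, -1.78 for fibroblast markers, -1.51 for uterine markers and -1.41 for leukocyte markers, against -0.72 for the 10 matrix genes.

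No gene of the 6 pathway lists passed the threshold over all genes, on 4 arrays or without array 2, and the counts here are of genes with an unadjusted p under 0.05 in limma (14.5% of all genes on 4 arrays and 23.2% without array 2). Beside the other counts, 49.7% of all genes had a negative mean (47.7% without array 2). At least 1 log2 unit up in control pool 2 were 3.27% of all genes. In the list of hyaluronan synthesis, breakdown and binding, 4 of 23 genes had such a p, 3 lower and 1 higher, and 5 without array 2, 4 lower and 1 higher. Its median was -0.01 (-0.07 without array 2), and 1 of the 23 genes was at least 1 log2 unit up in control pool 2. The bright members were Ugdh, which makes the UDP-glucuronic acid used by Has2, at -0.18 ± 0.13, and the hyaluronidase Hyal2 at -0.36 ± 0.14, lower on all 4 arrays.

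Enzymes of chondroitin and dermatan sulfate synthesis, which add the side chains of versican and decorin, had 18 of 24 negative means and a median of -0.13 (-0.07 without array 2). Of these 6 had an unadjusted p under 0.05, all lower, and without array 2 there were 8, of which 6 were lower. Papss1, which makes the sulfate donor, stood at -0.26, -0.29, -0.36 and -0.33 on arrays 1 to 4, a mean of -0.31 ± 0.04 (adjusted p = 0.144). The chondroitin synthase Chsy1 stood at -0.13 ± 0.05.

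Other proteoglycan core proteins had a median of -0.13 over 22 genes (-0.06 without array 2), with 8 at an unadjusted p under 0.05, 6 lower and 2 higher, in both settings. Agrn, a heparan sulfate proteoglycan, stood at 0.09 ± 0.20 (0.17 without array 2) and the glypican Gpc3 at -0.22 ± 0.14. Of these 22 genes 4 were at least 1 log2 unit up in control pool 2.

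Elastic fibre and microfibril genes had 15 of 20 negative means and a median of -0.23 (-0.14 without array 2). At an unadjusted p under 0.05 there were 4, 3 lower and 1 higher, and without array 2 there were 8, 7 lower and 1 higher. Mfap2, a microfibril protein that binds fibrillin, was lower on all 4 arrays at -0.43 ± 0.14 (adjusted p = 0.143), while Emilin2 stood at 0.10 ± 0.20 (0.01 without array 2). Of the 20 genes 5 were at least 1 log2 unit up in control pool 2, where the mean level of the list was 11.56 against 10.59 to 10.63. Mfap2 stood at 14.19 there against 13.89 to 14.19.

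Matricellular and adhesive glycoproteins had a median of -0.22 over 23 genes and of -0.05 without array 2. At an unadjusted p under 0.05 there were 5, 4 lower and 1 higher, and without array 2 there were 8, 5 lower and 3 higher. Sparc, a collagen-binding protein, went from -0.48 ± 0.85 to -0.06 ± 0.13 without array 2. Nid1, a basement membrane linker, went from -0.05 ± 0.78 to 0.34 ± 0.13. Of the 23 genes 7 were at least 1 log2 unit up in control pool 2.

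Fibrillar and microfibrillar collagens, the partners of decorin and lumican, had 13 of 13 negative means and a median of -0.69, and the median on array 2 was -2.11. Without array 2 the median was -0.13, with 10 of 13 negative and 6 at an unadjusted p under 0.05, all lower. Of the 13 genes 12 were at least 1 log2 unit up in control pool 2. Col1a1 went from -1.22 ± 1.58 to -0.43 ± 0.15 and Col3a1 from -0.69 ± 1.12 to -0.13 ± 0.13.

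The genes whose 4 log2 ratios came closest to the per-array medians of the 10 genes (-0.15, -0.72, 0.29 and 0.07 on arrays 1 to 4) were B3gnt9, Crb3, S100a10, AK048085, Sav1 and Amn, at Euclidean distances between 0.131 and 0.150 over 4 arrays. With 4 values among 19091 genes, such a likeness is a description only.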

How the data were processed

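The members, lists and rules were chosen with earlier results of these data known. The authors deposited Agilent Feature Extraction 9.5.1 output, per the file headers. The deposited spot intensity is a mean pixel signal beside a local background median; the authors' processed intensity is background-subtracted, detrended and dye-normalized. The deposited log10 ratio sets Cy5 over Cy3, so a positive value is higher in the mutant; the deposited series table holds the same values.

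Background was corrected with normexp (offset 50) and arrays normalized by loess without control spots (limma 3.58.1, R 4.3.3). Spots marked non-uniform were dropped, none of them a member's. A probe was kept where either channel was well above background on 3 or more of the 4 arrays (28794 probes). The probe with the highest mean intensity stood for a gene. Ratios were tested against 0 with lmFit and eBayes, checked on simulated data. Channel levels were scaled between arrays by the Aquantile method. No spot of a member was saturated. RefSeq (GRCm38) updated names: 23082 probes by accession, 6582 by symbol, 3073 by synonym, 8437 unchanged. The collection of promoter windows used holds none for Has2, Fn1, Lum and Dcn. Each array pairs the pools the labels number alike; same-numbered pools' deviations from their group means correlated at 0.09 to 0.43 over genes, below the highest other-numbered pool for control pools 1 (0.26 against 0.32) and 3 (0.09 against 0.20). The number of arrays limits precision.

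Named genes were the members, Tbx3, up to 4 genes of each pathway list past the threshold or else its 2 brightest, the 2 brightest of each cell type list, and the 6 nearest genes. Hoxa10, Hoxa11, Msx2 and Krt19 were named after their values were seen.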

Additional observations from a re-analysis of the deposited data

Results flagged for a closer look

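Of 30 sets of 4 values tested (ratio, control level and mutant level of each gene), 2 held a value whose gap to the nearest other value exceeded Dixon's 95% critical share of the range. Chance flags about 1 in 20 such sets. The Dcn level of control pool 2, 15.42, stood apart from the other control pools (11.63 to 11.99), and so did the Lum level of control pool 2, 14.26 (10.72 to 11.13 in the others). No mutant level was set apart in this way.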

How the results depend on the processing

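Over 15 alternative settings the 10 genes kept their sign in 136 of 150 cases. This count includes settings that gave each of the 10 genes its main value again, so no sign could turn there. These were no filter, a filter on both channels of all 4 arrays, non-uniform spots kept, and paired pools treated as independent. The mean over probes also repeated the main value for Dcn, Fbln2 and Lum. Without array 2 the sign turned for Dcn (0.45), Fbln1 (0.084) and Fbn1 (0.28), and with array 2 left out and the trend with brightness removed they read 0.47, 0.080 and 0.29. With array weights, which give array 2 the lowest weight, they read 0.40, 0.065 and 0.23. With 1 array left out Dcn ranged from -0.91 to 0.45, Fbln1 from -0.16 to 0.084, Fbn1 from -0.27 to 0.28 and Vcan from -0.10 (without array 3) to 0.13. With median centring Fbln1, Fbln2, Fbn1 and Has2 turned to 0.14, 0.057, 0.14 and 0.061, Fn1 went to 0.56 (adjusted p = 0.0548) and Vcan to 0.24. Genes past the threshold over all genes numbered 1 in the main analysis, 1574 with array weights, 5250 with median centring, 71 with array 2 and the trend removed, 3 with the scanner software's signals, 0 with the mean over probes, 0 without background subtraction and 0 to 194 when 1 array was left out, 194 being without array 2. Treating the paired pools as independent (no replicate block) gave 191 such genes, and none of the 10. Members past the threshold numbered 1 with array weights (Postn, -0.75, adjusted p = 0.0298), 1 with median centring (Hapln1) and 0 to 1 with 1 array left out. Members with a negative mean were 7 in the main analysis, 4 with array weights, 3 with median centring, 4 with array 2 and the trend removed, and 4 to 8 with 1 array left out. Members lower on all arrays were 1, or 1 to 2 with 1 array left out. Over all genes 49.7% had a negative mean in the main analysis and 47.7% without array 2. The shares lower on all arrays were 12.6% and 22.9%. Such shares over all genes were not counted in the other settings, so the member counts there have no background beside them. Members at an unadjusted p under 0.05 were 1, 3 with median centring, 2 with array 2 and the trend removed, and 1 to 2 with 1 array left out. Of all 19091 genes 2777 had such a p in the main analysis, 8286 with median centring and 4236 with array 2 and the trend removed. With 1 array left out 1497 to 4435 genes did. The causes were not tested. The median of the 10, -0.14, turned to 0.065 with array weights and 0.099 with median centring. It was 0.035 without array 2 and 0.036 with the trend removed as well. The medians of the 10 genes on each of the 4 arrays, array 2 included, had an SD of 0.43.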
